A study of Arabidopsis thaliana with 11 samples.

Results

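The chloroplast-encoded transcripts described here are the mRNAs of 69 protein-coding genes of the Arabidopsis plastid genome. A gene was a member when the platform annotation named it, and no other gene, for a probe set with a log2 intensity above 4 on at least 2 arrays. Each of the 69 genes had 1 such probe set, so the members are 69 of the 22810 probe sets on the array. Every plastid probe set that named a single gene passed this limit, and 68 of the 69 lay above 4 on all 11 arrays. The exception was ndhF, with log2 values between 3.58 and 5.49. The members comprised 15 psb genes for photosystem II, 5 psa genes for photosystem I, 6 pet genes for the cytochrome b6f complex, 6 atp genes for ATP synthase, 10 ndh genes for the NADH dehydrogenase-like complex and rbcL. A further 8 rps and 7 rpl genes encode ribosomal proteins, 4 rpo genes encode the plastid RNA polymerase, and 7 genes have other roles.

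RNA came from seedlings that had grown for 4 days in darkness and was hybridised to Affymetrix ATH1 arrays, which carry short oligonucleotide probes. The arf2 mutant, which carries a mutated gene for the auxin response factor ARF2, was measured on 0.5 µM brassinazole (BRZ) with 2 arrays and on mock medium with 3. Col, the wild type, was measured on 0.5 µM BRZ with 3 arrays and on mock medium with 3. BRZ is an inhibitor of brassinosteroid synthesis, and brassinosteroids are the steroid hormones that keep dark-grown seedlings elongated and etiolated. The study's text calls the arrays of a group independent biological replicates and says that arf2 on BRZ has fewer because of quality control. It does not name the arf2 allele, and no probe set was named for ARF2, so its own transcript was not analysed here.

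In darkness the plastids of a seedling are etioplasts, which hold a prolamellar body with protochlorophyllide oxidoreductase and form thylakoids once light arrives. Plastid genes are read by a bacterial-type polymerase whose core is encoded by the rpo genes and which needs nuclear sigma factors, and by phage-type polymerases encoded in the nucleus. Photosystem genes depend mainly on the bacterial-type enzyme, while the rpoB operon and accD are textbook targets of the phage-type enzymes, and many other genes use both. Most plastid genes are transcribed in clusters and their long precursors are then cut and trimmed. Plastid mRNAs mostly lack the stable poly(A) tail of nuclear mRNAs, and the labels do not state how the RNA was primed for labelling.

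The mean log2 intensity of the 69 members was 9.49 and 9.92 on the arrays of arf2 on BRZ. It was 9.92, 9.64 and 9.39 on those of arf2 on mock. In Col on BRZ it was 10.16, 10.13 and 10.49, and in Col on mock 9.38, 9.83 and 10.06. All 3 arrays of Col on BRZ therefore lay above the other 8. The group means were 9.70 ± 0.31 (SD, n = 2) for arf2 on BRZ, 9.65 ± 0.26 (n = 3) for arf2 on mock, 10.26 ± 0.20 (n = 3) for Col on BRZ and 9.75 ± 0.34 (n = 3) for Col on mock. RNA from whole seedlings cannot tell fewer plastids or fewer plastid-rich cells from less RNA per plastid.

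**Figure D1:**
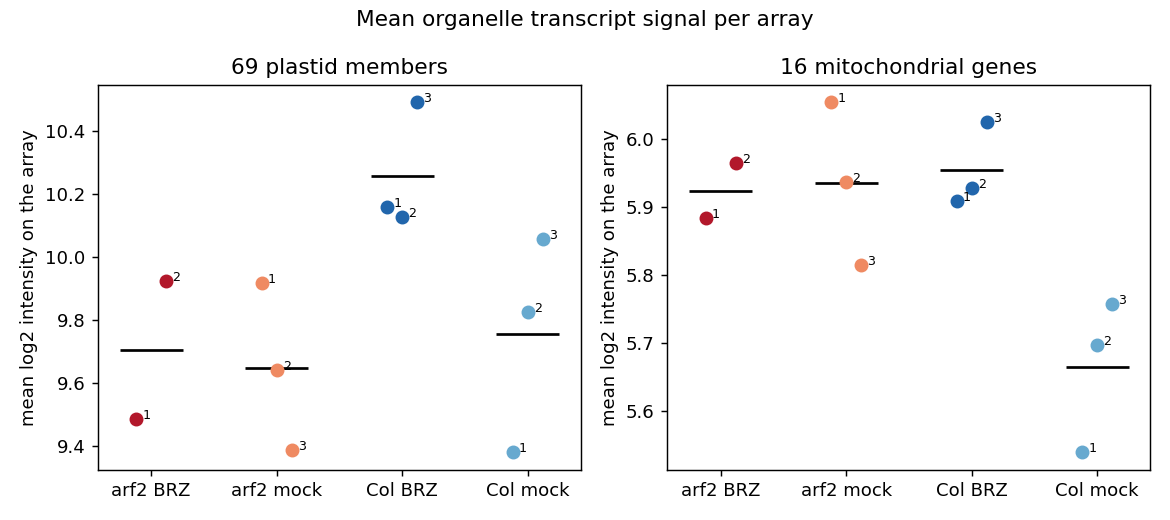
Mean log2 intensity per array (vertical axis) of the 69 plastid members (left) and of 16 mitochondrial genes (right) in the 4 groups. Points are arrays numbered by replicate and lines are group means. The plastid mean is highest on the 3 arrays of Col on BRZ, from 10.13 to 10.49, while the mitochondrial mean is lowest on the 3 arrays of Col on mock.

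Arrays of one group differed in the signal of nearly all members at once. In Col on mock, 65 of the 69 members were lowest on replicate 1 and 64 were highest on replicate 3. In arf2 on mock, 61 were lowest on replicate 3 and 64 were highest on replicate 1. In arf2 on BRZ, 62 were lower on replicate 1, and in Col on BRZ 56 were highest on replicate 3. The first principal component of the residuals from the group means held 75.7% of their variance for the members and 48.5% for all tested probe sets. The median residual SD was 0.32 on the log2 scale for the members, between 0.13 for atpE and 0.79 for psbT, and 0.15 for all tested probe sets. Col on mock replicates 1 and 2 also had the lowest median of all tested probe sets, 5.96 and 5.93, against 6.09 to 6.28 on the other arrays. After subtraction of each array's median the plastid mean was 3.91 to 4.29 in Col on BRZ and 3.42 to 3.90 in Col on mock. The probe set for 25S rRNA, which like plastid mRNA lacks a stable poly(A) tail, had intensities of 33.6 and 63.9 in arf2 on BRZ and 173 to 263 in arf2 on mock. Its intensities were 85.3 to 131 in Col on BRZ and 59.7 to 95.9 in Col on mock. The part of these array differences in the results was not tested.

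**Figure D2:**
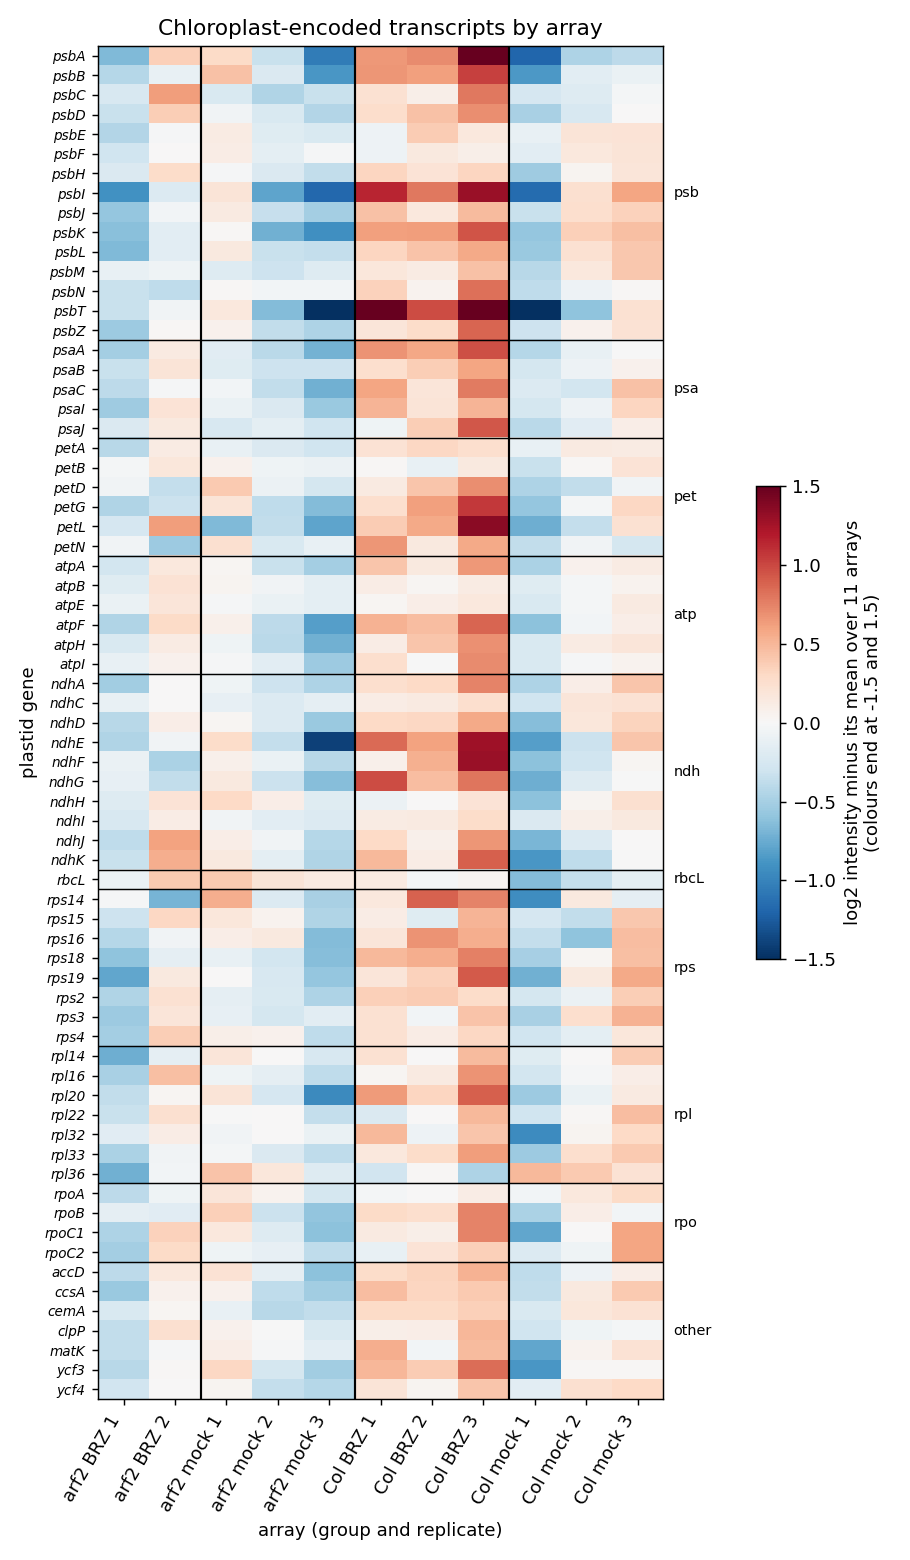
Log2 intensity of each member minus its mean over the 11 arrays (colour), with genes in rows by complex and arrays in columns by group. Col on BRZ replicate 3 is the array where 48 of the 69 members were highest, and Col on mock replicate 1, arf2 on mock replicate 3 and arf2 on BRZ replicate 1 hold most of the lowest values.

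The first comparison asks how wild-type seedlings that grew with less brassinosteroid differed from those on mock medium. Some transcripts of the photosystems, the cytochrome b6f complex and the NADH dehydrogenase-like complex rose in Col on BRZ. Of the 69 members, 8 (11.6%) passed the test as higher and 0 as lower, where a call is an adjusted p under 0.05 over all 21886 tested probe sets. Over all tested probe sets 6.2% were called higher and 2.74% lower. The 8 were psbT, psbA, psbB, psbD, ndhG, psaA, petD and petN. The log2 change was above 0 for 66 members (95.7%), against 60.3% of all tested probe sets, and its median was 0.44 against 0.06. The values of the 2 groups did not overlap, with BRZ higher, for 31 members (44.9%), against a background of 19.0%. At an unadjusted p under 0.05 there were 31 members higher and 1 lower, against 19.7% and 7.12% of all tested probe sets. All 8 calls were lost when Col on BRZ replicate 3 or Col on mock replicate 1 was left out, where 2.72% and 2.94% of all probe sets were called higher. Without Col on BRZ replicate 1 or arf2 on mock replicate 2, 5 members were called higher, against 2.95% and 4.91% of all probe sets. Without Col on mock replicate 3, 23 members were called higher, against 18.1% of all probe sets, and 1 was called lower, against 5.11%. When each array was shifted to an equal median, 54 members stayed above 0 with a median of 0.26 against −0.12 for all probe sets, and 5 calls held, those of psbT, psbA, psbB, psaA and ndhG.

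Photosystem II splits water and passes electrons to plastoquinone, and 4 of the 15 psb genes rose in Col on BRZ. psbT, a small subunit near the dimer interface, had log2 intensities of 8.34, 7.78 and 8.95 in Col on BRZ, against 4.97, 6.20 and 7.02 in Col on mock. All BRZ values lay above all mock values, although the mock arrays themselves spanned more than the gap between the groups. The log2 change was 2.29 ± 0.51 (SE; 4.90-fold, adjusted p = 0.0174), the largest of all members. The mock value of 4.97 was near the lower quartile of the arrays, which was 4.44 to 4.65, so 1 of the 3 mock values behind this fold is close to the array floor.

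psbA, which encodes the rapidly turned-over D1 reaction centre protein, had 9.88, 9.95 and 11.32 in Col on BRZ, against 8.04, 8.76 and 8.84 in Col on mock. The groups did not overlap, and replicate 3 stood above the other BRZ arrays. The change was 1.83 ± 0.43 (3.57-fold, adjusted p = 0.0229). psbB, which encodes the CP47 core antenna, had 10.77, 10.73 and 11.14 in Col on BRZ, against 9.26, 9.96 and 10.02 in Col on mock. Its change was 1.14 ± 0.29 (adjusted p = 0.0334), again without overlap. psbD, for the D2 partner of D1, changed by 0.71 ± 0.19 (adjusted p = 0.0416), and it was called under 11 of 25 alternatives. Its values were 9.54 to 9.97 in Col on BRZ and 8.79 to 9.28 in Col on mock.

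The other 11 psb genes did not pass the test. psbI, a small subunit of the reaction centre, had a change of 1.18 ± 0.43 (adjusted p = 0.109). psbC, for the CP43 core antenna, had 0.52 ± 0.22 (adjusted p = 0.145). At the low end lay psbE and psbF, which encode the 2 chains of cytochrome b559, with 0.06 ± 0.16 (adjusted p = 0.827) and −0.02 ± 0.13 (adjusted p = 0.948). The 15 psb genes had a median change of 0.52, and 14 of them were above 0.

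Photosystem I carries light-driven electrons to ferredoxin, and its reaction centre is the heterodimer of PsaA and PsaB. psaA had 11.55, 11.46 and 11.84 in Col on BRZ, against 10.45, 10.77 and 10.88 in Col on mock. The groups did not overlap, and the change of 0.92 ± 0.19 (1.89-fold) had the smallest adjusted p of all members, 0.0118. psaB had 13.28, 13.41 and 13.63 in Col on BRZ, against 12.77, 12.96 and 13.10 in Col on mock, with a change of 0.50 ± 0.14 (adjusted p = 0.0536). psaC, psaI and psaJ, for an iron-sulphur subunit and small membrane subunits, had changes of 0.41 to 0.57 and were not called.

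The cytochrome b6f complex links the photosystems, and 2 of its 6 plastid genes rose. petN, a small subunit, had 7.85, 7.34 and 7.76 in Col on BRZ, against 6.82, 7.14 and 6.92 in Col on mock, a change of 0.69 ± 0.18 (adjusted p = 0.0326). petD, for subunit IV, had 5.46, 5.74 and 6.02 in Col on BRZ, against 4.87, 4.96 and 5.28 in Col on mock, a change of 0.71 ± 0.19 (adjusted p = 0.0399). The lowest petD values, like that of psbT, were close to that quartile. The petN call was lost after quantile normalization (adjusted p = 0.124), with equal array medians (0.114) and with the 2 groups alone (0.0511). petD was called under 10 of 24 alternatives, and those without a call include equal array medians (adjusted p = 0.0784), array weights (0.0502), the replicate block (0.0759) and the 2 groups alone (0.0617). petL had the largest change of the 6, 1.05 ± 0.30, with an adjusted p of 0.0523. petB, for cytochrome b6, had the smallest, 0.06 ± 0.14 (adjusted p = 0.802).

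The NADH dehydrogenase-like complex returns electrons to plastoquinone in cyclic flow around photosystem I. Of its 10 plastid genes ndhG was called, with 7.75, 7.24 and 7.58 in Col on BRZ, against 6.04, 6.58 and 6.77 in Col on mock. Its change was 1.06 ± 0.22 (2.09-fold, adjusted p = 0.0135). ndhE had a larger but more variable change, 1.15 ± 0.39 (adjusted p = 0.0890), and ndhC the smallest of the 10, 0.13 ± 0.13 (adjusted p = 0.514). All 10 were above 0, with a median of 0.54, and 7 were when each array was shifted to an equal median.

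None of the 6 ATP synthase genes passed the test. Their changes were between 0.14 for atpB, a catalytic subunit, and 0.80 ± 0.26 for atpF of the peripheral stalk (adjusted p = 0.0780), with a median of 0.38. rbcL, which encodes the large subunit of the carbon-fixing enzyme Rubisco, had 10.99, 10.83 and 10.90 in Col on BRZ, against 10.21, 10.50 and 10.71 in Col on mock. Its groups did not overlap, and its change of 0.44 ± 0.15 had an adjusted p of 0.0928.

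Of the genes for the plastid's own gene expression apparatus, none of the 15 ribosomal protein genes or 4 polymerase genes was called in Col. The rps genes had a median change of 0.41, from 0.11 for rps3 to 0.90 ± 0.33 for rps14 (adjusted p = 0.107). The rpl genes had a median of 0.32, from −0.61 for rpl36 to 0.79 ± 0.27 for rpl20 (adjusted p = 0.0905). rpl36 was the 1 member (1.45%, background 8.68%) with every BRZ value under every mock value, 10.36, 10.65 and 10.17 in Col on BRZ against 11.13, 11.04 and 10.86 in Col on mock. Its adjusted p was 0.0771, and it was called as lower when each array was shifted to an equal median (adjusted p = 0.0266). In that fit it was the 1 member called lower, and 5.36% of all probe sets were called lower.

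The core polymerase genes had a median change of 0.21. rpoB, the textbook target of the phage-type polymerases, had 6.16, 6.12 and 6.61 in Col on BRZ, against 5.40, 5.97 and 5.83 in Col on mock, a change of 0.56 ± 0.23 (adjusted p = 0.143). rpoC1 had 0.38 ± 0.34 (adjusted p = 0.481) and rpoA, the alpha subunit, −0.10 ± 0.14 (adjusted p = 0.641). The 7 other genes had a median of 0.36. Among them accD, for a subunit of the acetyl-CoA carboxylase of fatty acid synthesis, had 0.50 ± 0.21 (adjusted p = 0.151). clpP, for the proteolytic subunit of the Clp protease, had 0.36 ± 0.17 (adjusted p = 0.191). ycf3, needed for photosystem I assembly in tobacco, had the largest change of the 7, 0.85 ± 0.26 (adjusted p = 0.0675), and ycf4 the smallest, 0.09 ± 0.16 (adjusted p = 0.753).

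**Figure D3:**
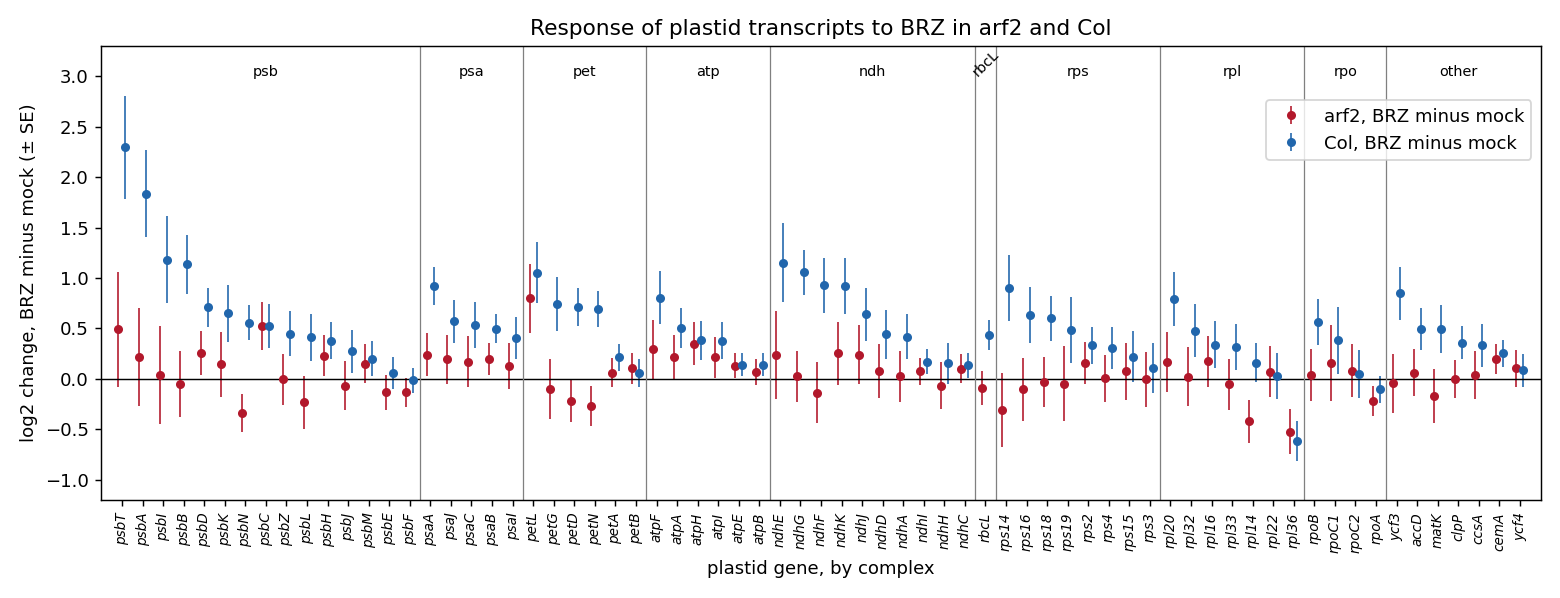
Log2 change of each member (BRZ minus mock, points ± SE from the model) in arf2 (red) and Col (blue), with genes on the horizontal axis by complex and ordered by the change in Col. Nearly all changes in Col are above 0, up to 2.29 for psbT, while those in arf2 lie on both sides of 0 and none was called.

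Brighter probe sets had a smaller median change. The 16 members with a mean log2 intensity under 8 had a median change of 0.77 in Col, the 42 members between 8 and 12 had 0.41, and the 11 members at 12 or above had 0.20. Probe sets differ in binding as well as in the abundance of their transcript, and the part of brightness in the size of the changes was not tested.

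Genes transcribed as one cluster did not all have like estimates. The psbB cluster reads psbB, psbT, psbH, petB and petD in that order, and its changes in Col on BRZ were 1.14, 2.29, 0.38, 0.06 and 0.71. The SEs of petB and psbT, the ends of this range, were 0.14 and 0.51. In the psaA cluster psaA, psaB and rps14 had 0.92, 0.50 and 0.90. In the psbK cluster psbK and psbI had 0.65 and 1.18. The psbE cluster of psbE, psbF, psbL and psbJ stayed between −0.02 and 0.41, and atpB and atpE both had 0.14. In the rpl23 cluster, which ends with rpoA, the 7 single-gene members ran from −0.61 for rpl36 to 0.48 for rps19, with a median of 0.11. In the rpoB cluster rpoB, rpoC1 and rpoC2 had 0.56, 0.38 and 0.05. Differences between genes of a cluster were not tested.

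**Figure D4:**
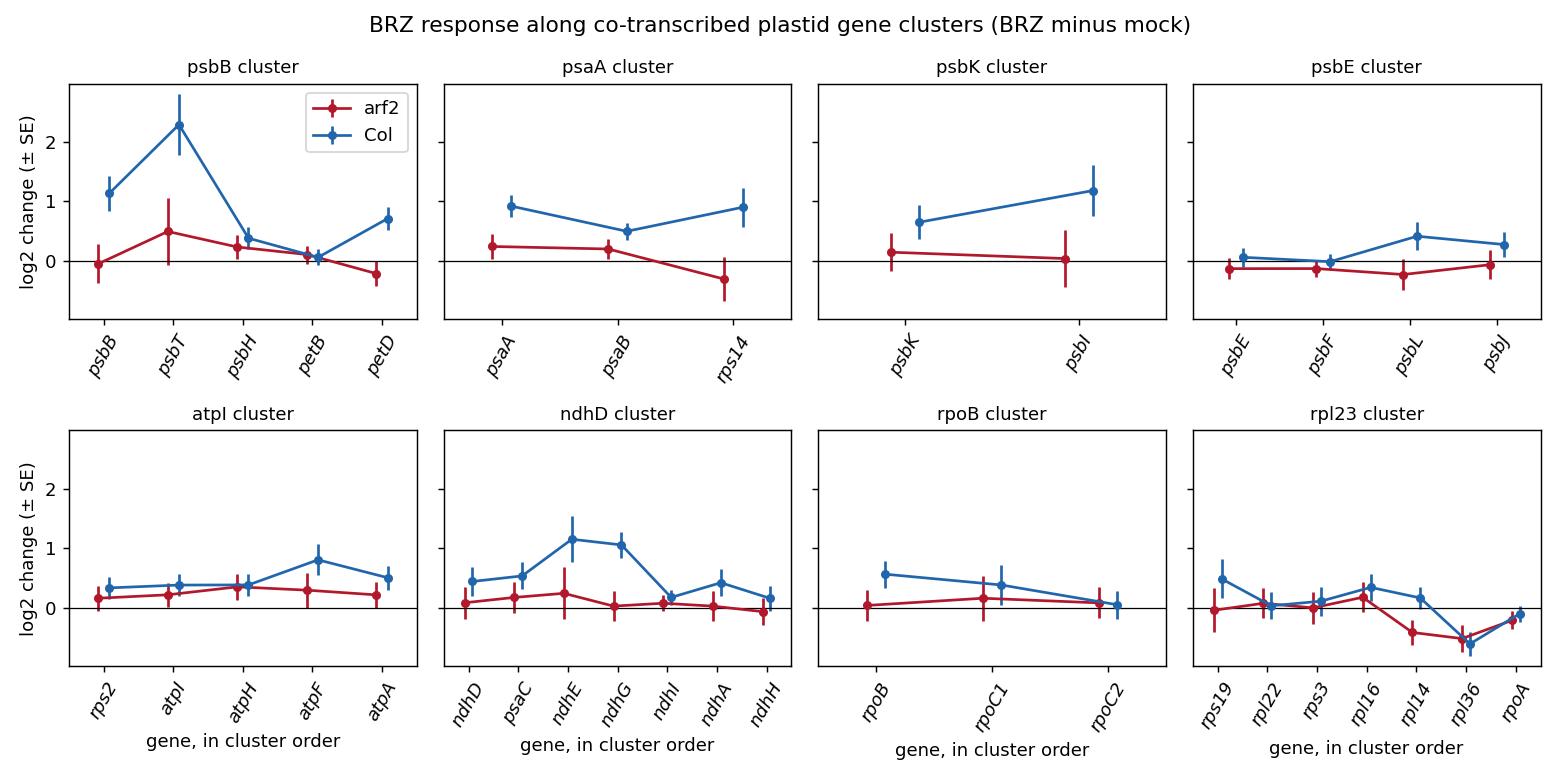
Log2 change (BRZ minus mock, vertical axis, ± SE) of the members of 8 plastid gene clusters, in cluster order on the horizontal axis, in arf2 (red) and Col (blue). In Col the psbB cluster runs from 0.06 for petB to 2.29 for psbT, while the psbE cluster stays between −0.02 and 0.41.

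The next comparison asks whether BRZ had the same effect in the arf2 mutant. No member was called in arf2, neither higher nor lower, while 2.92% of all tested probe sets were called higher and 2.89% lower. At an unadjusted p under 0.05, limma gave 1 member higher and 1 lower, against 9.95% and 7.5% of all tested probe sets. The smallest adjusted p values were 0.242 for rpl36 and 0.243 for petL. rpl36 had 9.91 and 10.59 in arf2 on BRZ, against 11.07, 10.81 and 10.45 in arf2 on mock, a change of −0.52 ± 0.22 in overlapping groups. petL had 9.28 and 10.16 in arf2 on BRZ, against 8.87, 9.16 and 8.74 in arf2 on mock, a change of 0.80 ± 0.34 without overlap. The change was above 0 for 44 of the 69 members (63.8%, background 50.1%), with a median of 0.07 against 0.00 for all tested probe sets. The groups did not overlap for petL, ndhC and psbM, with BRZ higher (4.35%, background 22.0%), and for psbN, with BRZ lower (1.45%, background 17.8%). The median was 0.30 without arf2 on BRZ replicate 1 and −0.19 without replicate 2, and it was −0.08 without arf2 on mock replicate 3, so its direction rested on single arrays.

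By estimate the members called in Col changed less in arf2, but they had been picked for their change in Col. psbT had 6.47 and 6.74 in arf2 on BRZ, against 6.96, 6.15 and 5.23 in arf2 on mock, a change of 0.49 ± 0.57 (adjusted p = 0.731). psbA had 8.57 and 9.59 in arf2 on BRZ, against 9.51, 8.90 and 8.18 in arf2 on mock, a change of 0.22 ± 0.48 (adjusted p = 0.869). Both genes overlapped between the media. psaA had a change of 0.24 ± 0.21, psbD 0.26 ± 0.21, ndhG 0.02 ± 0.25 and psbB −0.05 ± 0.33. petD and petN were lower on BRZ by estimate, with −0.22 ± 0.21 and −0.27 ± 0.20 (adjusted p = 0.678 and 0.558). By complex the median change in arf2 was 0.04 for psb, 0.19 for psa, −0.02 for pet, 0.22 for atp, 0.08 for ndh, −0.02 for rps, 0.02 for rpl and 0.06 for rpo. Within psb, psbC had the largest change in arf2, 0.53 ± 0.24 (adjusted p = 0.288), and its change in Col was nearly the same.

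The difference between the 2 responses was tested directly as an interaction, the BRZ change in arf2 minus that in Col. No member was called, against 0.251% of all tested probe sets called above 0 and 0.589% below. At an unadjusted p under 0.05, 0 members lay above 0 and 12 below, against 2.76% and 6.49% of all probe sets. The estimate was below 0 for 63 members (91.3%), and its median was −0.36 against −0.05 for all tested probe sets, of which 40.0% were above 0. petN had the smallest adjusted p, 0.176, with −0.96 ± 0.26, followed by psbN with −0.89 ± 0.25 (adjusted p = 0.197). The largest estimate was that of psbT, −1.80 ± 0.76 (adjusted p = 0.494), and that of psbC was 0.00 ± 0.32. The median was −0.076 without arf2 on BRZ replicate 1, −0.63 without arf2 on BRZ replicate 2 and −0.071 without Col on mock replicates 1 and 2. A different response of plastid transcripts in arf2 was therefore not shown for any single gene. Across the 69 members the 2 responses, which share no array, had Pearson's r of 0.38 and Spearman's rho of 0.22. The points share their probes and, within each genotype, their arrays.

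The third comparison asks how the mutant differed from the wild type on mock medium. rbcL was the 1 called member and was higher in arf2, that is 1.45% of members against 5.38% of all tested probe sets called higher and 1.97% lower. It had 11.25, 11.05 and 10.99 in arf2 on mock, against 10.21, 10.50 and 10.71 in Col on mock. The groups did not overlap, and the change was 0.63 ± 0.15 (1.54-fold, adjusted p = 0.0268). The call was lost without Col on mock replicate 1 (adjusted p = 0.0949) and without arf2 on mock replicate 1 or 2, and in a fit of these 2 groups alone (adjusted p = 0.0810). Without Col on mock replicate 1, cemA and psbM were instead called lower in arf2, with −0.49 and −0.52. These are 2 of the 69 members, and 1.88% of all probe sets were called lower in that fit. rbcL had 10.77 and 11.25 in arf2 on BRZ and 10.83 to 10.99 in Col on BRZ, so Col on mock was its lowest group.

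For the other members the estimate tended to be lower in arf2 on mock, but none of these was called. Of the 69, 48 (69.6%) were below 0, and the median was −0.17 against 0.05 for all tested probe sets, of which 61.2% were above 0. At an unadjusted p under 0.05, 1 member was higher and 2 were lower, against 15.4% and 5.19% of all tested probe sets. The lowest estimate was that of psbK, −0.61 ± 0.29 (adjusted p = 0.253), with 12.27, 11.54 and 11.34 in arf2 on mock against 11.68, 12.61 and 12.71 in Col on mock. petA, for cytochrome f, was the 1 member (1.45%, background 5.7%) with all arf2 values below all Col values, 11.962 to 12.141 in arf2 on mock against 12.144 to 12.387 in Col on mock, and its change was −0.26 ± 0.13 (adjusted p = 0.305). The median was 0.01 with array weights, so its direction was not stable.

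**Figure D5:**
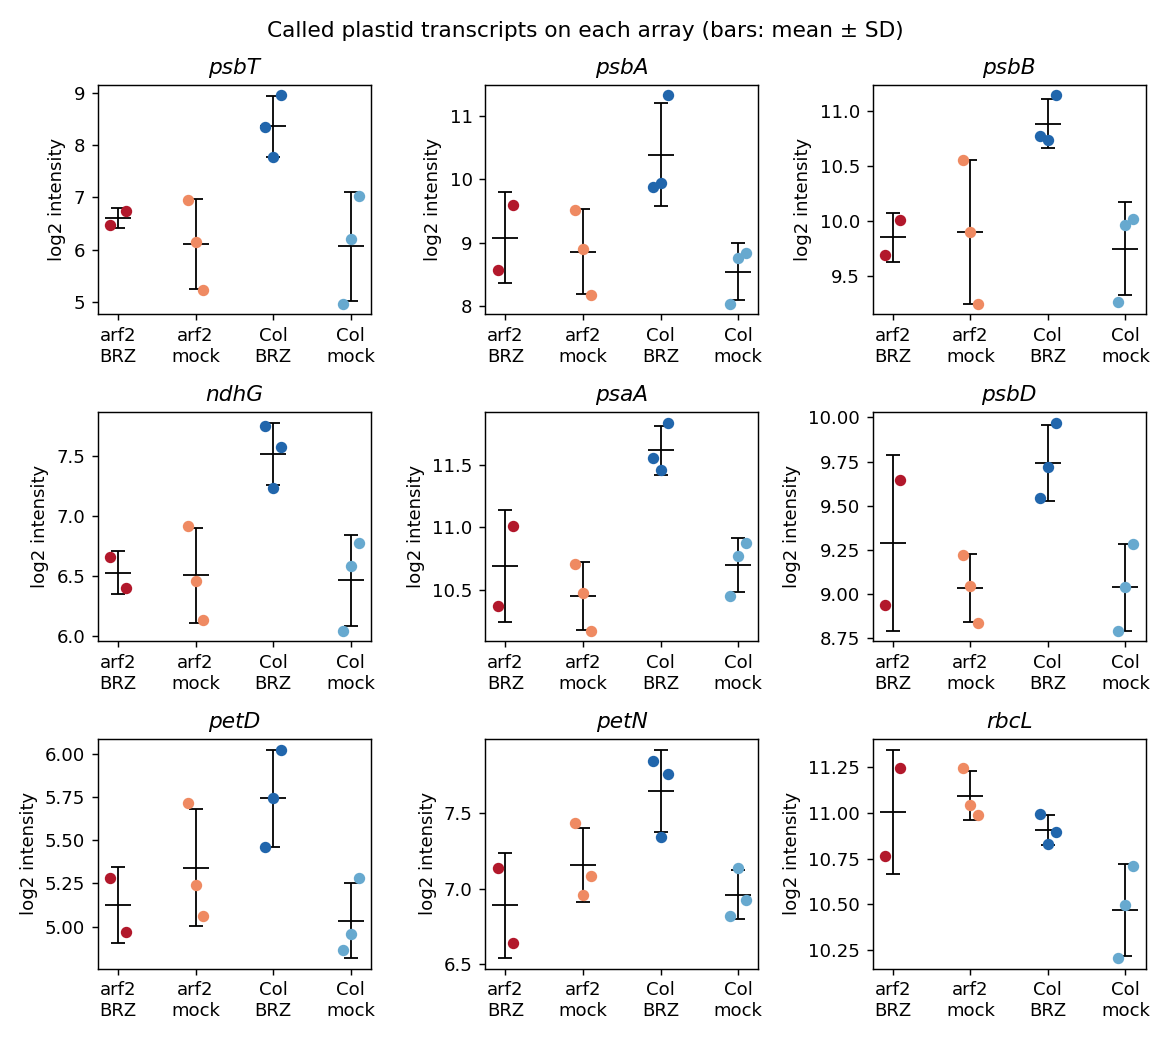
Log2 intensity (vertical axes) of the 8 members called between BRZ and mock in Col, and of rbcL, called between arf2 and Col on mock, on each array of the 4 groups. Bars are means ± SD. Col on BRZ is the highest group for the 8 genes, and Col on mock the lowest for rbcL.

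The fourth comparison sets the mutant against the wild type on BRZ. No member passed the test, against 0.297% of all tested probe sets called higher and 0.32% lower, yet 67 of the 69 (97.1%) were lower in arf2 by estimate. Of all tested probe sets 51.3% were above 0. At an unadjusted p under 0.05 limma gave 0 members higher and 33 lower, against 5.62% and 4.03% of all tested probe sets. The median was −0.48 against 0.01 for all tested probe sets, and 40 members (58.0%, background 15.4%) had both arf2 values below all 3 Col values. This comparison and the BRZ comparison in Col both use the arrays of Col on BRZ, so the 2 patterns are not independent. The median kept its sign without each array of arf2 or Col on BRZ in turn and lay between −0.74 and −0.26. The mock arrays do not enter this median.

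psaA had the smallest adjusted p, 0.0931, with 10.37 and 11.01 in arf2 on BRZ, against 11.55, 11.46 and 11.84 in Col on BRZ, a change of −0.93 ± 0.21. psbN, whose product assists photosystem II assembly in tobacco, followed with −0.76 ± 0.19 (adjusted p = 0.133). The lowest estimates were those of psbT, −1.75 ± 0.57 (adjusted p = 0.281), and psbI, −1.63 ± 0.48 (adjusted p = 0.224). psbI had 9.73 and 10.43 in arf2 on BRZ, against 11.78, 11.43 and 11.94 in Col on BRZ, with no overlap. rbcL and petB were the 2 members not lower in arf2, with 0.10 ± 0.17 (adjusted p = 0.982) and 0.05 ± 0.15 (adjusted p = 0.997). By complex the median was −0.70 for psb, −0.57 for psa, −0.60 for pet, −0.40 for atp, −0.47 for ndh, −0.58 for rps, −0.30 for rpl and −0.32 for rpo. With array weights 16 members were called lower, psaA with an adjusted p of 0.00742, against 1.8% of all probe sets called lower in that fit. In a fit of the 2 groups alone 8 were called lower, psbI with 0.0150, against 0.832% of all probe sets.

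Over the 4 groups, 18 members (26.1%, background 4.19%) had all 3 arrays of Col on BRZ above the other 8. Of the psb genes they included psbA, psbB, psbT, psbK, psbI and psbN. The others were psaA and psaB of photosystem I, petA, atpF, ndhE, ndhF, ndhG, ycf3, accD, cemA, rps18 and rpl20. The highest value of a member fell on an array of Col on BRZ for 58 of the 69 (84.1%). For 48 members that array was replicate 3, and for 5 each it was replicate 1 or 2. The like share of all tested probe sets was not computed.

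Nuclear genes for the same complexes and for plastid gene expression could be followed only in part. Of 106 list entries, which repeat some genes between lists, 17 were named alone by a tested probe set. No gene for a sigma factor, for any of 12 polymerase-associated proteins or for the 6 light-grown leaf markers was among them. RPOTMP, a phage-type polymerase, and CRP1, which in maize is needed for the processing of petB and petD transcripts, were not called in any comparison. Of 7 nuclear subunits of the photosynthetic complexes, PSAN of photosystem I was called in Col on BRZ, with a change of 0.58 ± 0.10 (adjusted p = 0.00366). Its values were 10.70 to 10.82 in Col on BRZ and 10.09 to 10.27 in Col on mock. On mock medium PSAE1 of photosystem I was lower in arf2, with −0.59 ± 0.15 (adjusted p = 0.0352), and PSBY of photosystem II higher, with 0.60 ± 0.15 (adjusted p = 0.0289). PORB, a protochlorophyllide oxidoreductase of etioplasts, had 11.05 to 11.22 in arf2 on mock against 11.76 to 11.82 in Col on mock, a change of −0.68 ± 0.15 (adjusted p = 0.0183). Its change on BRZ in Col was 0.10 ± 0.15 (adjusted p = 0.684). Of 7 nuclear genes for plastid ribosomal proteins, PRPL5 was called lower on BRZ in arf2, with −0.73 ± 0.16 (adjusted p = 0.0176), and no other was called in any comparison.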

How the data were processed

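RNA of 11 samples was measured on Affymetrix ATH1 arrays. The deposited values are linear intensity estimates per probe set, which the authors made with gcRMA after quality control with simpleaffy, per the series' design text. Versions are not given in the sources used here. gcRMA adjusts the background and normalizes between arrays, yet the deposited array medians still ran from log2 5.93 to 6.28. The log2 of each intensity was taken. The 64 control probe sets and 860 others not above log2 4 on at least 2 arrays were left out, and 21886 were tested.

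Genes came from the platform annotation, matched by gene ID to the TAIR10.1 gene table. Of 77 plastid probe sets, 69 name 1 gene and 8 name both copies of 7 genes in the inverted repeat. The 8 were kept apart. The 16 mitochondrial genes were matched by symbol.

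limma 3.58.1 in R 4.3.3 fitted 1 mean per group over all 11 arrays. Errors of changes are its SEs, and the adjusted p is that of its two-sided moderated test, with the Benjamini-Hochberg adjustment made over the whole tested table. The script was checked on simulated data. The number of arrays limits the precision. Named genes were, per comparison, up to 3 called members that rose most and 3 that fell most (2 of smallest adjusted p where none was called), the extremes of each complex, psbA, psaA, psaB, rbcL, rpoB, rpoC1, accD, clpP and called genes of nuclear lists. Other genes were named after their values were seen. The members and lists were chosen with earlier results of these data known. Alternatives changed the filter, scaling, variance model, probe set choice, fitted arrays and replicate block. Figures were drawn with matplotlib 3.10.9.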

Additional observations from a re-analysis of the deposited data

Results flagged for a closer look

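psbN lies within the psbB cluster on the opposite strand, and its response to BRZ ran in opposite directions in the 2 genotypes on every array. It had 5.60 and 5.55 in arf2 on BRZ, against 5.95, 5.89 and 5.89 in arf2 on mock, and 6.28, 5.98 and 6.76 in Col on BRZ, against 5.54, 5.85 and 5.95 in Col on mock. The interaction was −0.89 ± 0.25 and was not called (adjusted p = 0.197).

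Probe sets that name both copies of an inverted-repeat gene stood outside the members. On BRZ in Col, 2 of the 8 were called higher, against 6.2% of all tested probe sets. One of the 2 probe sets for rps12, the trans-spliced ribosomal protein gene, had 7.96, 7.79 and 8.50 in Col on BRZ, against 6.76, 6.92 and 7.20 in Col on mock, a change of 1.12 ± 0.21 (adjusted p = 0.00653). It was also higher in arf2 on mock than in Col on mock, with 0.76 ± 0.21 (adjusted p = 0.0499). In that comparison 5.38% of all tested probe sets were called higher. The other rps12 probe set changed by 0.76 ± 0.26 on BRZ in Col (adjusted p = 0.0930) and by 0.01 ± 0.26 in arf2 against Col on mock (adjusted p = 0.994), so the 2 disagreed on the genotype difference. ndhB had 4.91, 5.18 and 5.03 in Col on BRZ, against 4.32, 4.11 and 4.51 in Col on mock, a change of 0.73 ± 0.13 (adjusted p = 0.00586), at a signal near the lower quartile of the arrays.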

How the results depend on the processing

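For BRZ in Col, 8 members were called, all higher, against 6.2% of all probe sets called higher. The count was 13 with a filter at log2 5 (10.9% of all higher), 14 at log2 6, 1 of them lower (14.7% higher, 5.24% lower), 7 after quantile normalization (4.27%), 6 with equal array medians, 1 of them lower, and 5 with the 2 groups alone (2.73%). It was 0 to 24 when 1 array was left out (5 without arf2 on mock replicate 2 or Col on BRZ replicate 1), and 0 without Col on mock replicates 1 and 2, also with arf2 on mock replicate 3 left out (chosen after seeing the data). The median change of 0.44 was 0.28 to 0.60 without 1 array and 0.13 without Col on mock replicates 1 and 2, with or without arf2 on mock replicate 3. Equal array medians turned the split of calls over all probe sets from 6.2% higher and 2.74% lower to 2.86% and 5.36%, and for arf2 against Col on mock from 5.38% and 1.97% to 2.83% and 3.57%. Relative to all probe sets the members' median in Col was 0.38 in the original scale and 0.36 after quantile normalization. Equal medians shift all probe sets of an array alike, so the 0.38 cannot change there. For BRZ in arf2, array weights called 1 member, rpl36, as lower, against 5.8% of all probe sets called lower and 6.51% higher. The median was −0.19 to 0.30 without 1 array. For arf2 against Col on mock, 1 member was called, 2 with equal array medians, 0 with the 2 groups alone and 0 to 2 without 1 array, where the median was −0.26 to 0.00. For arf2 against Col on BRZ, 0 members were called, against 0.32% of all probe sets lower. Array weights called 16 lower (1.8% of all probe sets), the 2 groups alone 8 (0.832%) and equal array medians 2 (0.461%). Without Col on mock replicate 2 and arf2 on mock replicate 3, 2 were called lower (0.721%). Without Col on mock replicates 1 and 2, which left 1 array in that group, the median was −0.48, also with arf2 on mock replicate 3 left out. Mock arrays do not enter this median, so it could not move in these fits. The median was −0.74 to −0.26 without 1 array. The interaction called 0 members under its 24 alternatives, and its median was −0.63 to −0.076 without 1 array and −0.071 without Col on mock replicates 1 and 2. Why these counts moved was not tested.

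Same-numbered arrays of different groups correlated by −0.59 to 0.14 in their deviations from the group means, so the numbers were not taken as pairs, although within Col each array correlated best with its own number. With the replicate number as a block, 6 members were called for BRZ in Col, all higher, against 3.97% of all probe sets called higher. For arf2 against Col on mock that fit called 0 members, against 3.88% of all probe sets higher and 1.5% lower. For the named genes, 2994 values under alternatives stayed on the same side of the threshold, 56 passed it only there and 69 no longer passed it. Most named genes were not called in the main fit, so most of these values had no call to lose. Of the called members, psbA and psaA kept the call in 21 of 25 alternatives, psbT and ndhG in 20 and rbcL in 18. petN and psbB kept it in 17 of 25, psbD in 11 of 25 and petD in 10 of 24. Of the 2994, 174 changed sign, 12 of them with equal array medians, and none of the 174 was called in either fit. Signal near the array floor limits ndhF, atpI, rps16, petD and psbT, which had a log2 value under 5 on at least 1 array, and ndhB.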

Other observations

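The 16 mitochondrial genes measured alone gave a second organelle to set beside the plastid. Their mean log2 intensity was 5.88 and 5.96 in arf2 on BRZ, 5.81 to 6.05 in arf2 on mock, 5.91 to 6.02 in Col on BRZ and 5.54 to 5.76 in Col on mock. All 3 arrays of Col on mock lay below the other 8, whereas for the plastid members Col on BRZ stood above the others. Relative to each array's median, Col on mock replicates 1 and 3 stayed lowest for the mitochondrial mean, but replicate 2 did not. Its mitochondrial mean was 5.70 at an array median of 5.93, against 5.88 at 6.23 on arf2 on BRZ replicate 1. On BRZ in Col, 14 of the 16 were above 0 (background 60.3%) with a median of 0.36. ccmFC, which acts in cytochrome c maturation, was the 1 gene called higher, with 0.91 (adjusted p = 0.00656), and 1 of 16 is near the 6.2% called higher over all tested probe sets. In arf2 against Col on mock, 15 were above 0 (background 61.2%) with a median of 0.24, and 3 were called higher (background 5.38%), cox2 with 0.67, cox1 with 0.55 and mttB with 0.34. These include cox1 and cox2 for subunits of cytochrome c oxidase. Under BRZ the median of arf2 against Col was −0.06, with no gene called. No difference between the 2 organelles was tested, and Col on mock replicates 1 and 2 had the lowest array medians.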
